A study of Mus musculus with 9 samples.

Results

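Hepatic stellate cells, the vitamin A-storing pericytes of the liver sinusoid, were followed through 9 marker genes in whole-liver RNA. The genes were taken by symbol, and all 9 were found among the 55253 symbols of the table: Reln, Hgf, Ecm1 and Colec10 as markers of the resting cell, Des, Pdgfrb and Pdgfra as general markers, and Acta2 and Tagln as markers of activation. The study took 3′ mRNA libraries from livers of 9 male C57Bl/6J mice. The WD+alcohol group (5 mice) ate a Western diet and drank sweetened water containing 10% alcohol. Treatment began at 10 weeks of age and lasted 23 weeks. The control group (4 mice) had chow and standard tap water. Diet, alcohol and sweetener came together, so the contrast measures their joint effect.

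A resting stellate cell stores retinyl esters, secretes hepatocyte growth factor and reelin, and carries receptors for platelet-derived growth factor (PDGF). In injured liver it can lose its lipid droplets, take on contractile proteins such as alpha smooth muscle actin and lay down fibrillar collagen, which makes it the main source of scar matrix. In healthy liver, alpha smooth muscle actin is known mainly from the muscle of vessel walls.

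Libraries held between 3635860 and 6643645 reads in genes, and 1 read was worth 0.152 to 0.270 CPM, the read count scaled to a common library size. Of 14759 genes tested with limma-trend on log2(CPM + 1), 338 (2.29%) had a Benjamini-Hochberg adjusted p under 0.05. Xist, the RNA that coats the inactive X chromosome of female cells, stood at 92.9 to 132 CPM in every library, although all mice are labelled male. Hmga2, a chromatin protein of embryonic and cultured cells that adult liver hardly makes, stood at 190 to 239 CPM in the 9 libraries. The proliferation genes Top2a (64.9 to 88.5 CPM) and Mki67 (21.4 to 30.2 CPM) were present in all of them as well. These 4 genes and Cdk1, another proliferation gene (55.5 to 77.2 CPM), were looked up after the values of Acta2 had been seen. None was called between the groups by limma-trend (adjusted p 0.220 to 0.967). Mki67 had a log2 fold change of 0.28 and an unadjusted p of 0.0145 by limma-trend, with all 5 WD+alcohol values above the control median. The labels name no source other than liver, so how much of each marker's RNA came from stellate cells cannot be told apart from RNA of other cells.

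Hepatocyte RNA was present throughout, with albumin (Alb) at 14342 to 42089 CPM. Of 9 tested hepatocyte markers 2 were called lower (Apoa1 and Alb) and 0 higher, against 0.678% and 1.61% of all tested genes. All 9 had a negative log2 fold change (median -0.44), and 7 had an unadjusted p under 0.05 by limma-trend, against 12.2%. Kupffer cell markers were called higher in 8 of 10 cases, against the same 1.61%. Of 8 genes of skeletal muscle, another tissue with desmin, Ckm and Mb had 0 reads in every library, while Tnni2 (7.77 to 16.8 CPM) and Acta1 (8.18 to 11.5 CPM) were present in all. None of the 3 tested was called, and the 8 summed to 18.9 to 33.6 CPM in controls and 21.8 to 26.0 CPM with WD+alcohol. Their part in the level of Des was not tested.

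None of the stellate markers passed the test. Of the 9 genes, 8 had a mean of at least 1 CPM and were tested, and 0 of these 8 were called with limma-trend, against 2.29% of all tested genes. At an unadjusted p under 0.05 there was 1 marker, Pdgfrb, against 12.2% of all tested genes. edgeR's quasi-likelihood test and DESeq2 on the recovered reads also called 0 of the 8, against 2.13% and 3.71% of the genes each tested. The values of the groups overlapped for all 9 markers, the untested Hgf included, and 5.34% of tested genes had groups that did not overlap. With 8 or 9 genes, counts of 0 and 1 are near these background shares. The median log2 fold change of the 8 was 0.15, beside -0.0008 over all tested genes. In bulk liver, fewer stellate cells and less RNA per stellate cell cannot be told apart, and neither can their opposites.

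**Figure D1:**
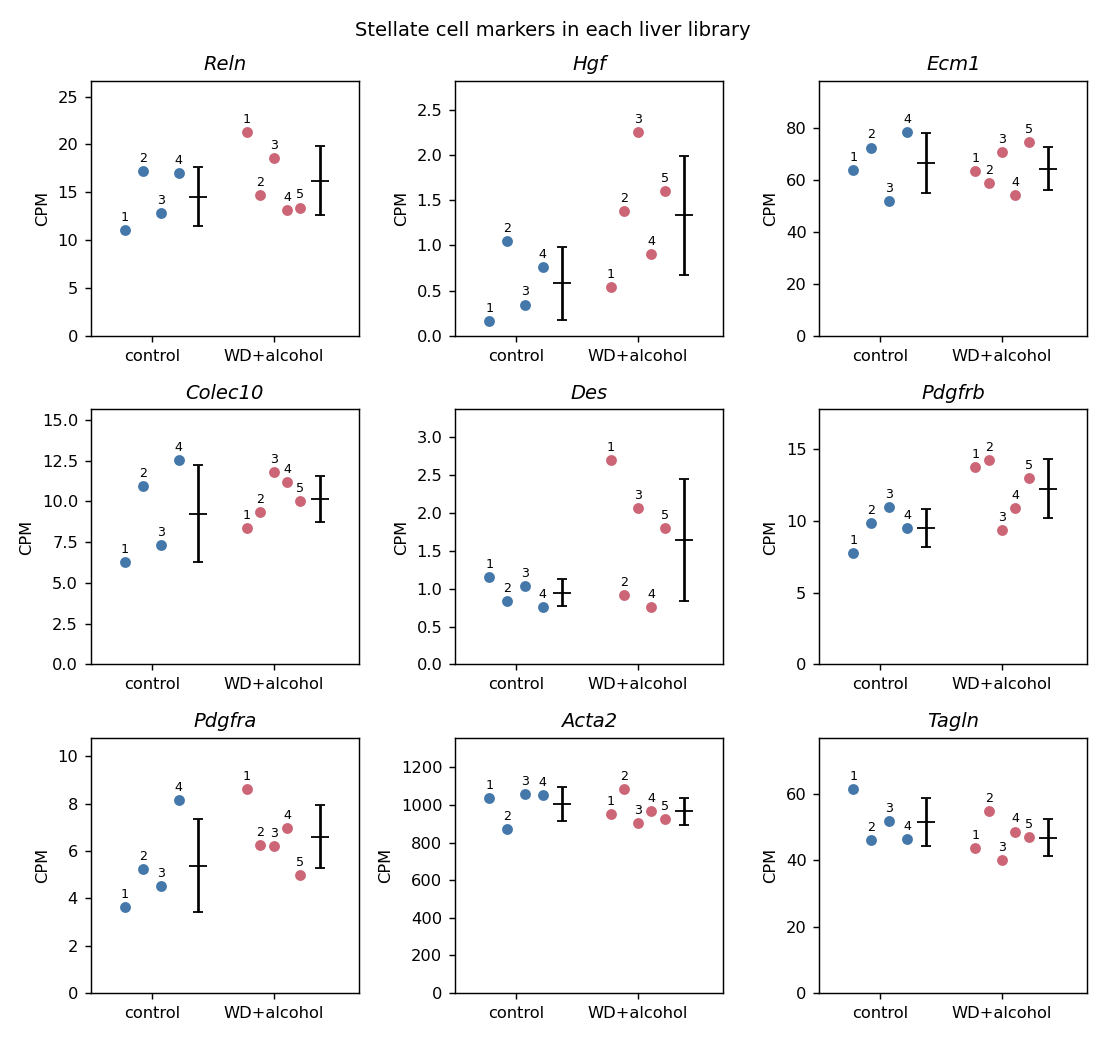
Level in CPM (vertical axis, from 0, a different scale in each panel) of the 9 stellate cell markers in 4 control and 5 WD+alcohol libraries, numbered by replicate, with the group mean and SD as bars. The groups overlap in every panel, and Acta2 lies between 874 and 1086 CPM in all 9 libraries.

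Among the resting-cell markers, Reln encodes reelin, a large secreted glycoprotein known from neuronal migration and made in liver by stellate cells. It stood at 11.0, 17.2, 12.9 and 17.1 CPM in controls 1 to 4 and at 21.3, 14.7, 18.6, 13.2 and 13.4 CPM in WD+alcohol 1 to 5. The highest value belonged to WD+alcohol 1, while WD+alcohol 2, 4 and 5 lay inside the control range. The group means were 16.2 ± 3.56 CPM (SD, n = 5) and 14.5 ± 3.09 CPM (SD, n = 4), and the log2 fold change was 0.15 (95% interval -0.22 to 0.52; limma-trend adjusted p = 0.813).

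Ecm1, extracellular matrix protein 1, binds matrix and holds TGF-beta in its latent form, and hepatocytes are known to make it too. It was the most abundant of the 4 resting-cell markers, at 63.8, 72.5, 51.8 and 78.4 CPM in controls and 63.6, 58.8, 70.8, 54.1 and 74.7 CPM with WD+alcohol. All 5 WD+alcohol values lay within the control range. Its log2 fold change was -0.04 (95% interval -0.31 to 0.23; adjusted p = 0.944), and the sign was positive with all libraries rescaled to a common total and without control 2, control 4 or WD+alcohol 4.

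Colec10, the secreted lectin collectin liver 1, stood at 6.26, 10.9, 7.30 and 12.5 CPM in controls and 8.36, 9.32, 11.8, 11.2 and 10.0 CPM with WD+alcohol. The controls were the more scattered group here, with an SD of 2.95 CPM against 1.40 CPM, and again enclosed every WD+alcohol value. The log2 fold change was 0.16 (95% interval -0.25 to 0.57; adjusted p = 0.815). Controls 1 and 3 had the lowest values of Reln and Colec10 among the controls, and of Hgf as well.

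Hgf encodes hepatocyte growth factor, the ligand of the receptor MET and a mitogen for hepatocytes, made in liver by stellate and endothelial cells. It was barely detected, with 1, 5, 2 and 4 reads in controls 1 to 4 (0.16, 1.05, 0.35 and 0.76 CPM) and 2, 9, 12, 6 and 8 reads in WD+alcohol 1 to 5 (0.54, 1.38, 2.25, 0.91 and 1.6 CPM). Several of these levels lie at or under what 3 reads are worth in a library, 0.455 to 0.809 CPM. WD+alcohol 2, 3 and 5 lay above every control, and WD+alcohol 1 and 4 within the control range. Its mean over the 9 libraries, 0.9997 CPM, was just under the filter of 1 CPM. In the fit without a filter its log2 fold change was 0.55 (95% interval 0.02 to 1.09), with an unadjusted p of 0.0444 and an adjusted p of 0.501 (limma-trend, 1.02% of 24607 genes called).

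The general markers were each higher on average with WD+alcohol and none passed the test. Pdgfrb, the PDGF receptor beta and the main receptor through which PDGF drives stellate cell division, stood at 7.74, 9.87, 10.9 and 9.47 CPM in controls and 13.7, 14.2, 9.38, 10.9 and 13.0 CPM with WD+alcohol. WD+alcohol 1, 2 and 5 lay above all controls, and WD+alcohol 3 and 4 within the control range. The means were 12.3 ± 2.04 CPM (SD, n = 5) and 9.51 ± 1.33 CPM (SD, n = 4). Its log2 fold change of 0.33 (95% interval 0.003 to 0.65) had an unadjusted p of 0.0482 and an adjusted p of 0.404 by limma-trend, the lowest of the 8 tested markers.

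Pdgfra, the alpha receptor, marks stellate cells and portal fibroblasts and binds more forms of the ligand. It stood at 3.63, 5.25, 4.52 and 8.15 CPM in controls and 8.62, 6.26, 6.19, 6.97 and 5.00 CPM with WD+alcohol. Control 4 was above all WD+alcohol libraries but WD+alcohol 1, and all 5 WD+alcohol values exceeded the control median of 4.89 CPM. The log2 fold change was 0.28 (95% interval -0.17 to 0.73; adjusted p = 0.671).

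Des encodes desmin, an intermediate filament of muscle that rodent stellate cells also carry. It was low, at 1.15, 0.84, 1.04 and 0.76 CPM in controls and 2.70, 0.92, 2.06, 0.76 and 1.80 CPM with WD+alcohol, or 4 to 11 reads a library. WD+alcohol 1, 3 and 5 were above every control, while WD+alcohol 2 and 4 had 6 and 5 reads against 4 to 7 in the controls. The log2 fold change was 0.39 (95% interval -0.17 to 0.95; adjusted p = 0.614). In the GENCODE M21 transcripts (GRCm38), 105 of 251 stretches of 50 bases in the last 300 bases of Des also lie in Gm15179, an antisense transcript that had 0 to 0.20 CPM here.

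Of the activation markers, Acta2 encodes alpha smooth muscle actin, the contractile protein by which activated stellate cells are usually recognised. Its level was 1036, 874, 1059 and 1053 CPM in controls and 951, 1086, 904, 967 and 923 CPM with WD+alcohol, so that controls and treated mice covered almost the same range. Only WD+alcohol 2 lay above the control median of 1044 CPM. The means were 966 ± 71.2 CPM (SD, n = 5) and 1005 ± 88.4 CPM (SD, n = 4), with a log2 fold change of -0.06 (95% interval -0.24 to 0.13; adjusted p = 0.867 by limma-trend). The gene had 3527 to 7105 reads a library. Without control 2 the log2 fold change was -0.12. How much of this RNA came from stellate cells was not tested, so a value near 0 in whole liver is no measure of activation in those cells.

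Tagln, transgelin or SM22-alpha, is an actin-binding protein of smooth muscle and myofibroblasts. It stood at 61.5, 46.0, 51.8 and 46.4 CPM in controls and 43.7, 54.9, 40.0, 48.6 and 46.8 CPM with WD+alcohol. Control 1 was highest and WD+alcohol 3 lowest, with the other values mixed. The log2 fold change was -0.13 (95% interval -0.37 to 0.11; adjusted p = 0.728). In the same annotation, 59 of 251 stretches of 50 bases at its 3′ end are shared with Pcsk7 on the opposite strand (15.0 to 21.4 CPM), and Gm48529, antisense to Tagln, had 1.07 to 2.20 CPM. The last 300 bases of the other 7 markers, Acta2 included, held no such stretch in common with another gene.

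Acta2 and Tagln belong to the genes controlled by serum response factor through CArG boxes, and the Acta2 promoter is the textbook case in which each box carries a single G or C inside its A/T core. The promoter is shown because Acta2 gave the highest level of the 9 markers. RefSeq's promoter table held 6 of the 9 markers, and the 250 bases before the Acta2 start are at chr19:34255374-34255623 on the minus strand of GRCm38.p6, an older build than that of the files. Capitals mark the matches to a CArG box with at most 1 G or C in the core, searched on both strands.

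Acta2: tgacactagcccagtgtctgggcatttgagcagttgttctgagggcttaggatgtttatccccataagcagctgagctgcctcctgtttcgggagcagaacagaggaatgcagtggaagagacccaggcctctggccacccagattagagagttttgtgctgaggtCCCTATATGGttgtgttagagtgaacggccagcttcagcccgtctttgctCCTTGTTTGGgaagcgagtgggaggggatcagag

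The 2 matches begin 84 and 34 bases before the start. Among 32851 promoter windows of this length, 8.59% held at least 1 such match and 0.670% held 2 or more. The looser pattern was set after the strict form had no match in Acta2. These shares are therefore no measure of how rare the Acta2 matches are. The windows of Reln, Hgf, Ecm1, Des and Pdgfra held no match. Colec10, Pdgfrb and Tagln had no entry and were not searched.

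Because libraries of this kind read the 3′ end, a count does not grow with transcript length, and levels in CPM can be set side by side. A limit holds for Des and Tagln, whose 3′ ends share stretches with another gene. In GENCODE M21, Dnaja1-ps (13.2 to 22.7 CPM) overlaps Reln and Gm43489 (0.16 to 1.08 CPM) overlaps Hgf on the same strand. On the opposite strand, Gm16111 (0.30 to 2.95 CPM) overlaps Reln and Gm18152 (1.20 to 3.30 CPM) overlaps Colec10. The strand setting is not known, and whether the counts of these markers are affected was not tested. By mean level over 9 libraries the markers ranked Acta2 (983 CPM), Ecm1 (65.4), Tagln (48.8), Reln (15.5), Pdgfrb (11.03), Colec10 (9.75), Pdgfra (6.07), Des (1.34) and Hgf (0.9997 CPM). The ranges over the 9 libraries of Ecm1 and Tagln overlapped, as did those of Reln, Pdgfrb, Colec10 and Pdgfra in neighbouring pairs, and those of Des and Hgf. Acta2 stood clear of all others. Its within-group spread was also the smallest, with a coefficient of variation of 8.04% (1.36% from counting alone), against 12.9% for Tagln, 15.1% for Ecm1, 21.8% for Reln and 46.6% for Des (38.1% from counting alone).

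**Figure D2:**
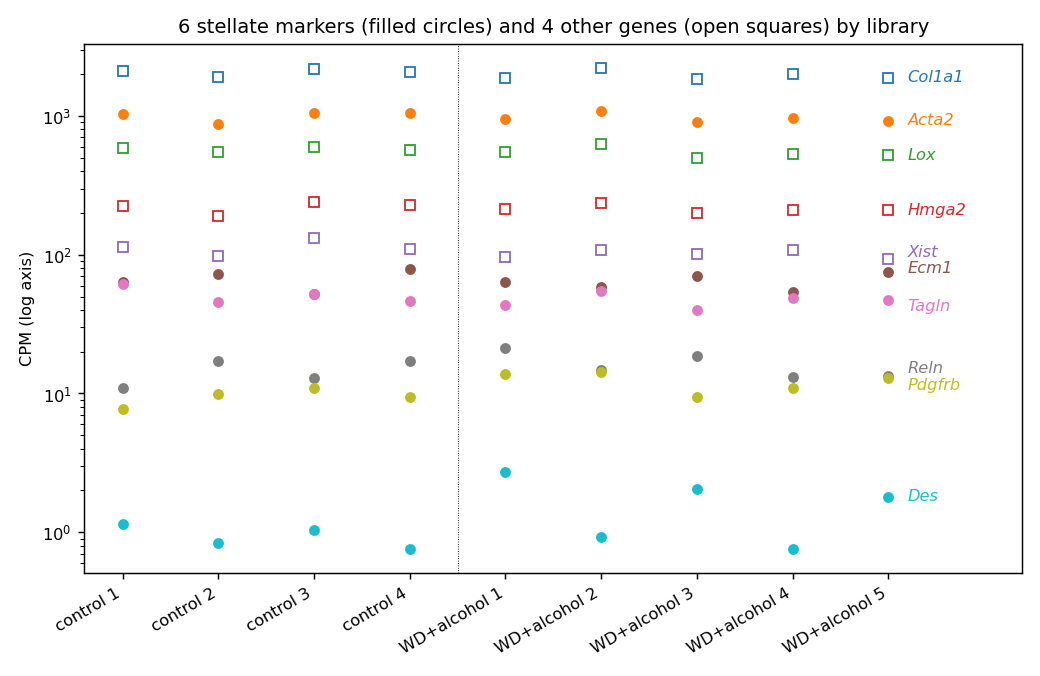
Level in CPM (vertical log axis) of 6 stellate markers (filled circles) and of Col1a1, Lox, Hmga2 and Xist (open squares) in each of the 9 libraries, controls left of the dotted line. Acta2 varied 1.24-fold over the libraries, Col1a1 1.19-fold and Hmga2 1.26-fold, while Des varied 3.56-fold.

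To contrast activation with quiescence, the mean log2(CPM + 1) of Acta2 and Tagln was set against that of Reln, Hgf, Ecm1 and Colec10 in each library. The difference was 4.82, 3.91, 4.64 and 4.04 in controls 1 to 4 and 4.10, 4.32, 3.63, 4.24 and 3.98 in WD+alcohol 1 to 5. Controls 1 and 3 stood highest, WD+alcohol 3 lowest, and the groups overlapped. The mean difference was 4.06 ± 0.27 (SD, n = 5) with WD+alcohol and 4.35 ± 0.44 (SD, n = 4) in controls, a shift of -0.30 that is smaller than the pooled SD of 0.35. The resting-cell mean was 0.20 higher and the activation mean changed by -0.09. Hgf, with 1 to 12 reads a library, made up most of the former: over Reln, Ecm1 and Colec10 alone the resting-cell mean was 0.09 higher and the shift was -0.18. Without control 1 the shift was -0.14, without control 3 it was -0.20, without WD+alcohol 3 it was -0.19, and with a pseudocount of 5 CPM it was -0.18. As a score over chosen genes it was not tested.

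**Figure D3:**
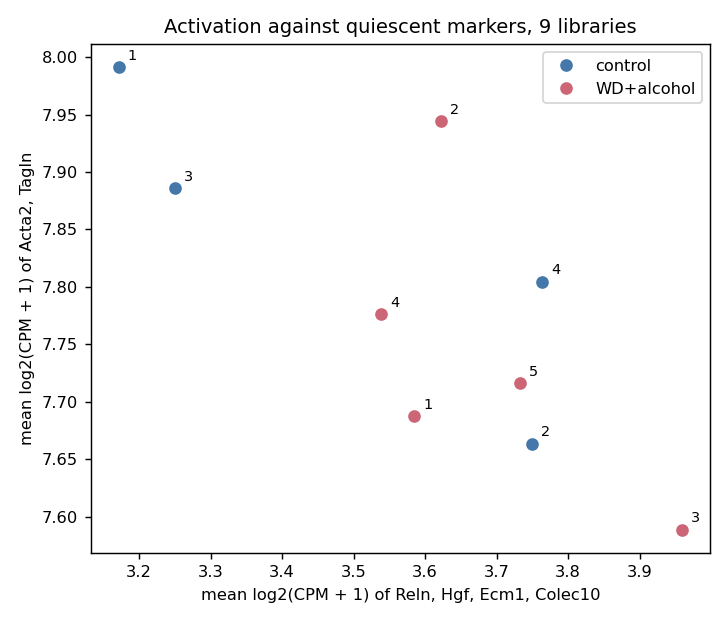
Mean log2(CPM + 1) of the activation markers Acta2 and Tagln (vertical axis) against that of the resting-cell markers Reln, Hgf, Ecm1 and Colec10 (horizontal axis), 1 point per library, numbered by replicate. Controls 1 and 3 lie at the upper left and the other controls among the WD+alcohol libraries, with differences of 3.63 to 4.82 between the axes.

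Other genes of stellate cells were taken from a list of 30, of which 29 were tested. Of these 3 rose (Dcn, Sod3 and Lum) and 0 fell, against 1.61% and 0.678% of all tested genes. The median log2 fold change was 0.33, beside -0.0008 for all tested genes. The change was positive for 21 of the 29 and negative for 8. The lowest were Angptl6 (-0.33), Bmp10 (-0.30), Rspo3 (-0.26) and Cxcl12 (-0.25), named after their values were seen. At an unadjusted p under 0.05 by limma-trend there were 11 of the 29, against 12.2% of all tested genes. Sinusoidal endothelial markers also had a positive median log2 fold change, 0.36. It was positive for 7 of the 10 markers and negative for 3, Bmp2 (-0.21), Gpr182 (-0.11) and Kdr (-0.05). Of the 10, 5 had an unadjusted p under 0.05 by limma-trend, against 12.2% of all tested genes. The 1 called was Fcgr2b, an Fc receptor (30.1 against 19.0 CPM, limma-trend adjusted p = 0.0176). The 10 endothelial markers summed to 127 to 192 CPM in controls and 181 to 233 CPM with WD+alcohol. Their part in the stellate list was not tested. Dcn, the collagen-binding proteoglycan decorin, stood at 82.1, 108, 79.6 and 102 CPM in controls and 198, 133, 161, 134 and 188 CPM with WD+alcohol, with every treated mouse above every control. Its log2 fold change was 0.79 ± 0.13 (SE), with an adjusted p of 0.00588 by limma-trend.

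Sod3, the extracellular superoxide dismutase, stood at 17.6, 17.9, 17.6 and 22.4 CPM in controls and 41.8, 35.8, 30.8, 25.8 and 49.6 CPM with WD+alcohol (log2 fold change 0.90 ± 0.16, SE; adjusted p = 0.00898). Lum, the proteoglycan lumican, named after its values were seen as the remaining called gene, stood at 2.14, 3.99, 1.91 and 3.03 CPM in controls and 14.3, 6.11, 5.63, 6.36 and 13.2 CPM with WD+alcohol (log2 fold change 1.36 ± 0.28, SE; adjusted p = 0.0208). The groups did not overlap for either gene. Lum was not called without control 1, control 3 or WD+alcohol 5 or with no filter (adjusted p 0.0510 to 0.0676). In a fit with the replicate number as a block none of the 3 was called (adjusted p 0.117 for Dcn, 0.105 for Sod3 and 0.149 for Lum), although the numbers do not pair the mice. WD+alcohol 5 has no control of its number and adds nothing to the fold changes of that fit. They equal those without WD+alcohol 5 (0.74 for Dcn, 0.78 for Sod3 and 1.21 for Lum). With DESeq2 the list held 5 called genes, Cygb and Rgs5 being added. Dcn and Lum are made by portal fibroblasts too. Of the 8 tested genes of the portal fibroblast and mesothelial list 0 were called, against 2.29% of all tested genes. By limma-trend 4 had an unadjusted p under 0.05, against 12.2%, and the median log2 fold change was 0.47. Entpd2, an ectonucleotidase (4.03 against 1.32 CPM, adjusted p = 0.0501), and Eln, elastin (3.53 against 1.15 CPM, adjusted p = 0.148), did not overlap between groups. Both were named after their values were seen, and 5.34% of all tested genes did not overlap either. The log2 fold change was positive for 5 of the 8 and negative for 3, Thy1 (-0.09), Cd34 (-0.07) and Fbln2 (-0.03). The list summed to 149 to 169 CPM in controls and 149 to 182 CPM with WD+alcohol, most of it Fbln2 (118 and 116 CPM). Msln had 0 reads in every library but WD+alcohol 2, which had 2 reads. The part of those cells was not tested.

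Lrat, the enzyme that esterifies retinol for storage in stellate cells, had a mean of 6.04 ± 2.12 CPM (SD, n = 5) with WD+alcohol and of 4.77 ± 1.65 CPM (SD, n = 4) in controls, and was not called (adjusted p = 0.799). Gfap, an intermediate filament used as a stellate marker in rodents, was under the filter, at 0 to 3 reads a library. Cygb, cytoglobin, and Rgs5, a pericyte regulator of G protein signalling, were singled out after their values were seen. Cygb averaged 23.2 ± 9.11 against 9.66 ± 4.41 CPM (limma-trend adjusted p = 0.0641; DESeq2 called it) and Rgs5 averaged 19.2 ± 6.30 against 10.6 ± 2.85 CPM (adjusted p = 0.0955; DESeq2 called it).

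**Figure D4:**
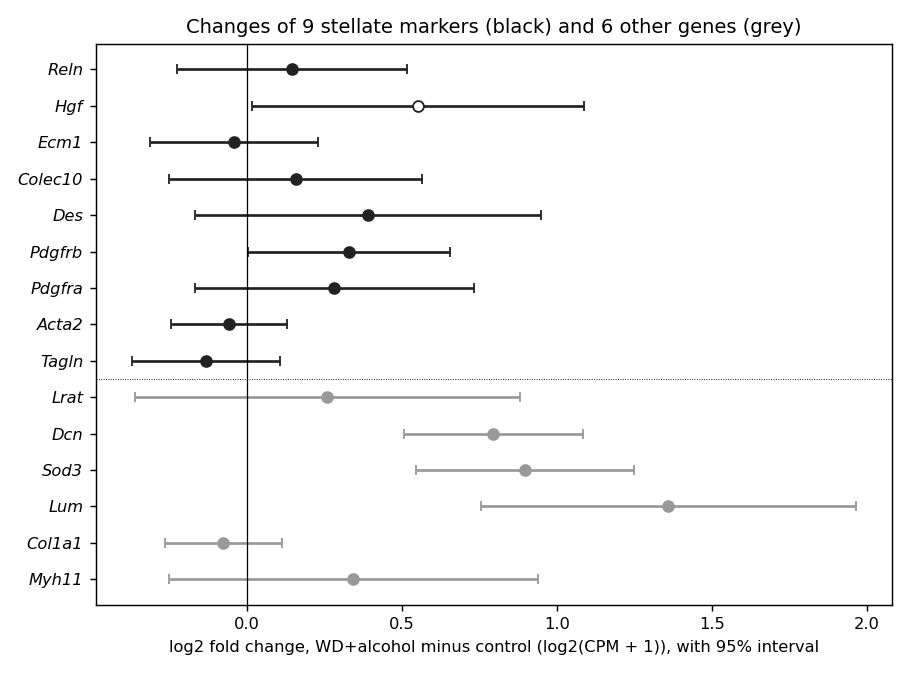
Log2 fold change of WD+alcohol minus control with its 95% interval (horizontal axis) for the 9 stellate markers in black and for 6 other genes in grey. Hgf, with an open circle, comes from the fit without a filter. Dcn, Sod3 and Lum lie to the right of 0 with intervals that start at 0.51 or above, and the intervals of Acta2, Tagln and Col1a1 include 0. The share of stellate cell RNA in the latter was not tested.

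Matrix genes of activated stellate cells did not pass the test, with 0 of 30 called (3 at an unadjusted p under 0.05; 0 with DESeq2 and edgeR) and a median log2 fold change of -0.02. Over all tested genes the shares were 2.29% and 12.2%, so these counts are near the background. Col1a2, a chain of type I collagen and the most abundant of the list, averaged 2276 ± 177 against 2356 ± 183 CPM. Col1a1 had a mean of 1972 ± 151 CPM (SD, n = 5) with WD+alcohol and of 2075 ± 108 CPM (SD, n = 4) in controls, with a log2 fold change of -0.08 (95% interval -0.26 to 0.11; adjusted p = 0.812). The levels were high and even, with 13476 to 15630 CPM for the 30 genes summed in controls and 13595 to 15900 CPM with WD+alcohol. The median within-group coefficient of variation of the matrix list was 7.95% (3.47% from counting), against 34.7% (17.3% from counting) for the other stellate genes, whose median level was far lower (6.51 against 152 CPM).

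The within-group coefficient of variation was 8.02% for Hmga2 and 9.86% for Xist. Control 2 had the lowest value among the controls of Acta2, Col1a1, Lox (a collagen cross-linking oxidase), Hmga2 and Xist, and the highest of Alb. WD+alcohol 2 had the highest Acta2, Col1a1, Lox and Hmga2 of its group and the lowest Alb, while Xist was highest in WD+alcohol 4 (109 against 108 CPM). Whether these genes share a source was not tested.

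Smooth muscle and contractile genes gave 0 calls among 17 tested with limma-trend, DESeq2 and edgeR, and 2 at an unadjusted p under 0.05. By limma-trend the shares over all tested genes were 2.29% and 12.2%. The median log2 fold change of the list was -0.02. Cald1, caldesmon, the most abundant, averaged 753 against 771 CPM. Myh11, the myosin heavy chain particular to smooth muscle, stood at 0.84 to 2.65 CPM in controls and 0.91 to 3 CPM with WD+alcohol, with a log2 fold change of 0.34 (95% interval -0.25 to 0.94; adjusted p = 0.708). The part of vessel muscle in the level of Acta2 was not tested.

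Of the partners of the PDGF receptors, 0 of 11 genes were called with limma-trend and edgeR, and 1 was higher with DESeq2. At an unadjusted p under 0.05 by limma-trend there were 2. Over all tested genes the limma-trend shares were 2.29% and 12.2%. The most abundant partner, the adaptor Grb2, averaged 127 against 129 CPM. Pdgfb, the ligand with high affinity for the beta receptor, stood at 3.46, 3.99, 3.13 and 3.22 CPM in controls and 8.36, 4.58, 4.50, 8.48 and 7.61 CPM with WD+alcohol. Every treated mouse was above every control, by 0.75 ± 0.21 (SE) on the log2 scale, and the adjusted p was 0.0844 with limma-trend and 0.0385 with DESeq2. The other ligands were closer between groups, with log2 fold changes of 0.21 for Pdgfa, -0.13 for Pdgfc and -0.04 for Pdgfd (adjusted p 0.537 to 0.942).

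In the list of HGF activation and MET signalling, 0 of 8 tested genes were called with limma-trend, and with DESeq2 1 was lower. At an unadjusted p under 0.05 by limma-trend there was 1. Over all tested genes the limma-trend shares were 2.29% and 12.2%. The receptor gene Met averaged 41.5 ± 7.49 against 38 ± 3.55 CPM, and Hpn, the membrane protease hepsin and the most abundant of the list, 109 ± 17.7 against 117 ± 25.9 CPM. Hgfac, the hepatocyte protease that activates pro-HGF, averaged 80.7 ± 16 CPM (SD) against 123 ± 25.6 CPM, with a log2 fold change of -0.60 ± 0.15 (SE). Its adjusted p was 0.0626 with limma-trend and 0.0130 with DESeq2, and it was under 0.05 without control 3 or WD+alcohol 3 (0.0489 and 0.0374).

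The remaining lists held no called gene with limma-trend, edgeR or DESeq2. They were the reelin receptors and signalling genes (6 tested, 0 at an unadjusted p under 0.05), the TGF-beta ligands, receptors and Smads (20 tested, 2 at an unadjusted p under 0.05), and serum response factor with its cofactors (8 tested, 2 at an unadjusted p under 0.05). Over all tested genes, limma-trend called 2.29%, and 12.2% had an unadjusted p under 0.05. The lists had median log2 fold changes of -0.03, -0.04 and 0.06. Integrin beta 1 (Itgb1, 311 against 316 CPM), the Smad corepressor Skil (95.1 against 98.7 CPM) and the matricellular protein Ccn1 (109 against 115 CPM) were the most abundant of each. Myocd, the cofactor of serum response factor in vessel muscle, was below the filter of 1 CPM.

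The genes most like the markers in pattern were sought among 11023 others with a mean of at least 5 CPM, by Pearson r over the 9 libraries after subtraction of each group's mean. The closest to the resting-cell mean were Snapc2 (r = 0.96), Aacs (0.96) and Bri3 (0.94), and to the mean of Acta2 and Tagln they were Il1r2 (r = 0.99), Bdnf (0.98) and Sub1 (0.97). With 9 points and a search over this many genes, high values of r are found by selection, and all points share the scaling of their library.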

How the data were processed

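Livers of 9 mice were measured by 3′ mRNA sequencing (Collibri kit, per the labels' protocols). Titles gave the groups, and all 9 columns carry library names that match 1 sample each. The design text gives 5 and 4 mice, hence 1 library per mouse. The markers and gene lists were chosen with earlier results of these data known.

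Per the submitters' processing notes, the authors used STAR with GRCm39, cutadapt 1.18 under Trim Galore 0.6.0, HTSeq 0.11.0 and edgeR 3.28.1. No source used here names the strand setting. The deposited values are a signal, CPM scaled by TMM by the authors. All positive values (100%, relative tolerance 1e-06) were whole multiples of the smallest in their column, which gave back whole reads.

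The test was two-sided limma-trend in R 4.3.3 (limma 3.58.1) on log2(CPM + 1), for genes averaging 1 CPM or more. P-values were adjusted by Benjamini-Hochberg over 14759 genes, with a threshold of 0.05. Fold changes on this scale understate those of low genes. Intervals are 95%. The analysis was tested on simulated counts. edgeR 4.0.16 and DESeq2 1.42.0 on the recovered reads, other pseudocounts, filters and scalings, robust limma-trend, a replicate block and leaving out each library were alternatives.

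Named genes were all 9 markers, of each list the 2 called genes with the smallest p or else the most abundant gene, and Col1a1, Lrat and Myh11. The looser form of the CArG box was set after the strict form (in 1.47% of promoter windows) had no match in Acta2. Genes outside this naming rule are the ligands and receptor of a marker, or were chosen freely. Hgfac, Entpd2, Eln, Msln and Lox are among the latter and count as chosen after their values were seen. Libraries of the same group differed by more than counting noise (chi-square per degree of freedom at least 5.82). A floor of 3 reads covers counting error only.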

Additional observations from a re-analysis of the deposited data

Results flagged for a closer look

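Acta2 in control 2, at 874 CPM, lay below the other 3 controls (1036 to 1059 CPM) by a gap that made up 87.3% of the range of the control group. It was the 1 value so far from its group among 20 groups of values looked at, and chance alone marks about 1 in 20 such groups. The same library had the lowest Col1a1, Hmga2 and Xist and the highest Alb of the controls. Without control 2 the log2 fold change of Acta2 was -0.12, against -0.06 with all libraries, and it was not called in either case.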

How the results depend on the processing

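No marker was called in any of the 19 alternatives, which tested 7 to 9 of the markers each. Hgf was tested in only part of them, and Des was not tested with the filter of 5 CPM. The lowest adjusted p of a marker was 0.249 (Pdgfrb, limma-trend without WD+alcohol 3). The number of genes called, 338 as reported, was 112 (76 higher, 36 lower) with the replicate block and 545 (370 higher, 175 lower) with DESeq2, and 365 were higher with all libraries rescaled to a common total, under which the median change over all genes was 0.05. Leaving out 1 library gave 201 (without WD+alcohol 5) to 387 genes, 139 (without WD+alcohol 5; 148 without control 1) to 264 higher, and 59 (without control 2; 62 without WD+alcohol 5) to 123 lower. Of the other stellate genes it gave 2 to 4 higher. The labels give no pairing, and same-numbered libraries did not deviate together (correlations -0.31 to -0.0075; 0 of 4 matched best with their own number). With the replicate block, to which WD+alcohol 5 adds nothing for the group difference, Dcn, Sod3 and Lum were not called (adjusted p 0.105 to 0.149). Pdgfd had a log2 fold change of 0.00051 in that fit. Values near 0 changed sign with all libraries rescaled to a common total, at 0.013 for Ecm1, 0.0057 for Col1a2, 0.020 for Cald1, 0.035 for Grb2, 0.033 for Itgb1, 0.0075 for Skil and 0.0077 for Pdgfd. When 1 library was left out the values ran from -0.15 to 0.042 for Ecm1, -0.059 to 0.017 for Grb2, -0.20 to 0.021 for Hpn, -0.12 to 0.0064 for Skil and -0.095 to 0.00051 for Pdgfd. They ran from 0.03 to 0.23 for Reln, 0.0075 to 0.31 for Colec10, 0.14 to 0.47 for Pdgfra and -0.12 to -0.03 for Acta2. The activation minus quiescent shift, -0.18 without Hgf (chosen after seeing the data), ran from -0.44 to -0.14 over the libraries left out. The cause of these changes was not tested. Depth limits Hgf and Des, which rest on 1 to 12 reads a library.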
